A study of Mus musculus with 8 samples.

Results

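B cells were picked from 2 single-cell libraries of mouse intestine, 1 from the small and 1 from the large intestine, by the counts of 4 genes. A cell barcode was kept when it held at least 500 detected genes and at most 20% of its unique molecular identifiers (UMIs, the counted RNA molecules) from mitochondrial genes. A kept barcode was called a B cell when it held at least 1 UMI of Ms4a1, at least 3 UMIs of Cd79a and Cd79b together and fewer than 5 UMIs of Mzb1. These thresholds gave 362 B cells among 8944 kept barcodes, 247 of 2756 in the small intestine and 115 of 6188 in the large intestine. Because the call used counts of these same cells, levels of B cell genes in B cells against other barcodes are given as a description.

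The series holds 8 mouse samples. Both tissue libraries came from digested intestine that was sorted for living cells, with added LGR5+ stem cells and added CD31+ PDPN+ LYVE1+ lymphatic endothelial cells. The mice were C57BL/6 or Lgr5-eGFP-ires-CreERT2 on that background, a line that carries a reporter and an inducible Cre at the stem cell gene Lgr5; the labels do not say which mice gave which library, nor their age or number. The other samples are 2 libraries of epithelial cells sorted from small intestinal organoids, grown alone or in coculture, and 4 spatial (Visium) sections, 2 technical duplicates of each intestine. The tissues were digested and sequenced separately, so the tissue and the library cannot be told apart. With 1 library per tissue no test was possible, and every interval below is a 95% interval for counting error only.

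B cells carry an immunoglobulin on their surface as the antigen receptor, which signals through the paired chains that Cd79a and Cd79b encode. Naive B cells express IgM and IgD from the same heavy chain locus by alternative splicing of the constant exons (Ighm and Ighd), whereas most plasma cells of the gut wall have switched to IgA (Igha). In the intestine B cells are found mainly in Peyer's patches, in isolated lymphoid follicles and in colonic patches, where they take up antigen, present it to T cells on MHC class II and may enter germinal centres. The transcription factors Ebf1 and Pax5 set up and keep B cell identity.

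Promoter sequence was available from RefSeq (build GRCm38.p6, the 250 bases before each gene's start) for 17 of 24 B cell marker and identity genes and for 7 of 10 MHC class II genes. The promoters below are shown because Cd79a is part of the B cell call and carries the only match to an early B cell factor type motif among these genes, and because the MHC class II genes were high together in B cells. Capitals mark the motif matches. The first lies at chr7:24897247-24897496 and the second at chr17:34305617-34305866, both on the plus strand and read 5′ to 3′.
Cd79a: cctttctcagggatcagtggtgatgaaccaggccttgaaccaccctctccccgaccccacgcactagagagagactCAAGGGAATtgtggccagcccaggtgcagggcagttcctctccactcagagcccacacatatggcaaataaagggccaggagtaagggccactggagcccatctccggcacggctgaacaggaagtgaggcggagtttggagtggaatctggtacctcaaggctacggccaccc
H2-Eb1: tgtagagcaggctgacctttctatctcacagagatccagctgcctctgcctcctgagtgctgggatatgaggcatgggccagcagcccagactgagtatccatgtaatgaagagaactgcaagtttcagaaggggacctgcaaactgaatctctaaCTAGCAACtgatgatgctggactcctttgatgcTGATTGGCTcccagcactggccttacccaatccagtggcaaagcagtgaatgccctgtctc

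Both strands of 32851 promoters were searched for 4 sets of letters, chosen from textbook sites; the promoters shown were picked after the matches were seen. CAAGGGAAT, of the type that early B cell factor binds, was found in 74 promoters (0.225%) and in 1 of the 17 marker and identity genes, Cd79a, at 174 to 166 bases before its start. CTAGCAAC, an X-box type sequence of MHC class II promoters, was found in 371 promoters (1.13%) and in H2-Eb1 and H2-Ob, 2 of the 7 MHC class II genes. TGATTGGNT, a Y-box type sequence, was found in 1130 promoters (3.44%) and in 4 of those 7, H2-Aa, H2-Eb1, H2-Oa and H2-Ob. In H2-Eb1 the X-box type match lay 94 to 87 and the Y-box type match 61 to 53 bases before the start. The octamer ATGCAAAT was found in 526 promoters (1.6%), in 0 of 17 and in 0 of 7. A match describes the letters only, and none of these windows was measured for binding.

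The B cells were small libraries, and a few held much more RNA than the rest. The small intestinal B cells held a median of 2845 UMIs (1508 to 37062) and 1251 genes, and those of the large intestine a median of 2715 UMIs (914 to 59792) and 1146 genes. Their mitochondrial UMIs had a median of 5.91% and 5.46%. T cell barcodes (at least 2 UMIs of Cd3d, Cd3e and Cd3g) numbered 56 and 66 and held medians of 3634.5 and 3630.5 UMIs, which made them the class nearest to B cells in depth. Plasma cell barcodes (109 and 304) held medians of 23348 and 21200.5 UMIs. Epithelial barcodes (1411 and 4263) held medians of 27595 and 26247 UMIs.

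Some B cells also held RNA of other cell types. At least 2 UMIs of Epcam, Cdh1, Krt8 and Krt19, genes of epithelial cells, were present in 48 small intestinal and 36 large intestinal B cells. Adding 2 UMIs of macrophage genes (2 and 0 cells), of Cdh5, Col1a1 and Col3a1 (3 and 1) or of T cell genes (0 and 0) gave 50 of 247 (20.2%) and 36 of 115 (31.3%), here called mixed B cells. They carried 36.1% of the small intestinal and 62.5% of the large intestinal B cell UMIs. All 7 and 7 B cells above 8000 UMIs were mixed, and they alone carried 19.0% and 48.5% of the B cell UMIs. The 10 epithelial genes summed to 2543 and 5363 counts per 1000000 UMIs (CPM) over all B cells. Over the 197 and 79 B cells that were not mixed they summed to 378 and 570 CPM. T cell barcodes, from which no mixed cells were removed, held 2432 and 6008 CPM of them. B cells that were not mixed still held UMIs of genes of other cell types. In them 7 goblet cell genes summed to 1090 and 2118 CPM, 8 endothelial genes to 172 and 588 CPM and 4 red blood cell genes to 1771 and 103 CPM. The endothelial genes summed to 277 and 251 CPM over all B cells and to 132 and 136 CPM in T cell barcodes. Doublets were kept. Shares of B cells with a UMI are over all B cells unless said otherwise.

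**Figure D1:**
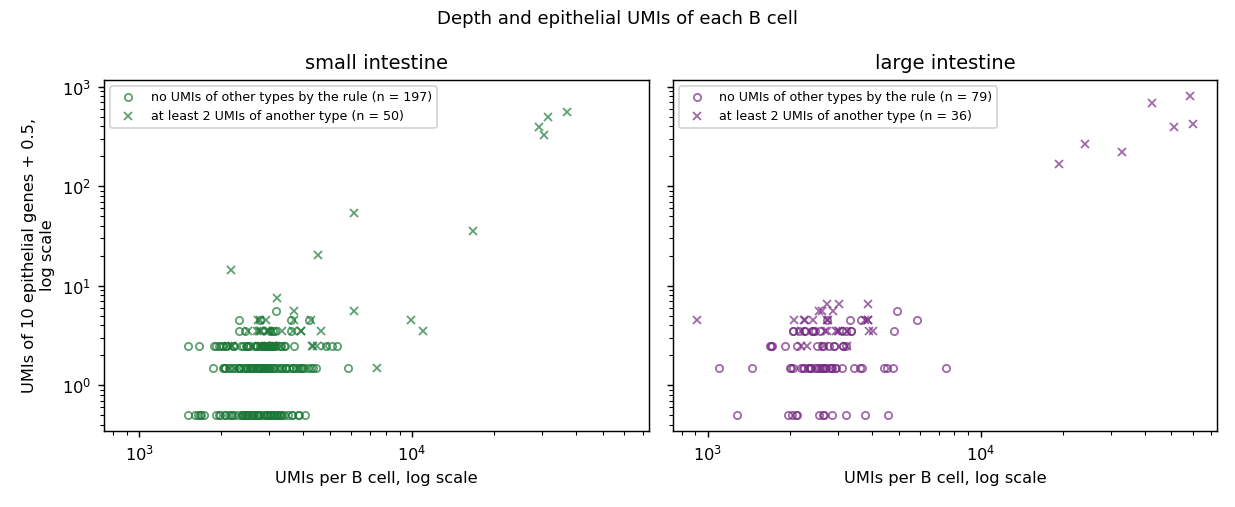
Each point is 1 B cell; the x axis gives its UMIs and the y axis its summed UMIs of 10 epithelial genes plus 0.5, both on log scales. Most B cells sit near the medians of 2845 and 2715 UMIs with few epithelial UMIs, and the 7 cells above 8000 UMIs in each tissue were mixed by the rule (crosses).

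Markers of T cells, macrophages and dendritic cells were mostly low. Of 12 T cell genes, 9 were at 0 UMIs in the B cells of each library, including Cd3e, Cd3g and Trac, and the list summed to 113 and 109 CPM against 5469 and 4817 CPM in T cell barcodes. Most of that sum was Cd2 (103 and 99.4 CPM), an adhesion receptor that B cells also carry. Macrophage genes summed to 16.0 and 84.2 CPM, with 5 and 3 of 10 at 0, against 1333 and 45.4 CPM in T cell barcodes. Dendritic cell genes summed to 6.87 and 0 CPM, with 5 and 9 of 9 at 0. Pecam1, the gene of the CD31 antigen used in the sort, had a UMI in 34.8% and 21.7% of B cells. Barcode sequences present in both tissue libraries numbered 25, and 1 of them was a small intestinal B cell.

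The boundary of the call was narrow for the Cd79 sum and wider for Ms4a1. Ms4a1 stood at its minimum of 1 UMI in 67 and 25 B cells, the Cd79 sum at 3 UMIs in 3 and 1, and Mzb1 at 4 UMIs in 1 and 6. Just outside lay 13 and 3 barcodes with Ms4a1 but only 1 or 2 UMIs of Cd79a and Cd79b, and 18 and 23 with none. A further 38 and 24 had at least 3 Cd79 UMIs without Ms4a1, and 21 and 11 passed both but held 5 or more UMIs of Mzb1. All of these remained among the other kept barcodes (2509 and 6073) used below, which were mostly epithelial.

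Of the 5 marker genes, Ighd and Pax5 were not used in the call, and both were high in both libraries. Ms4a1 (ENSMUSG00000024673), which encodes CD20, had a median of 3 UMIs per B cell in the small intestine (1 to 17) and of 3 in the large intestine (1 to 10). Cd79a (ENSMUSG00000003379) had medians of 7 (0 to 18) and 8 (1 to 20), and Cd79b medians of 4 (0 to 12) and 5 (0 to 14). These 3 genes defined the cells, so their height carries no information of its own. Ighd had medians of 3 (0 to 11) and 1 (0 to 6) and stood at 834 and 325 CPM. Pax5 stood at 379 and 130 CPM. On the log2 scale, summed CPM in B cells exceeded that in other kept barcodes by 8.38 (8.11 to 8.66) and 9.85 (9.38 to 10.34) for Ighd and by 7.34 and 9.17 for Pax5.

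B cell identity genes were high as a group. All 20 exceeded other kept barcodes at least 2-fold in both libraries, with median log2 ratios of 6.47 and 6.77; of all 5887 genes with at least 30 B cell UMIs over both libraries, 27.0% passed in the small and 14.9% in the large intestine, and 14.2% in both. Cd22, an inhibitory lectin, stood at 307 and 106 CPM, Ebf1 at 1443 and 974 CPM, and Bank1, a scaffold of receptor signalling, at 617 and 349 CPM. Fcmr, the receptor for IgM, stood at 524 and 460 CPM. The 15 genes with the highest ratios in both libraries were Fcer2a, Ighd, Cacna1i, Cxcr5, Cr2, Chst3, Ccr6, Pax5, Bank1, Ccr7, Trim30b, Fcmr, Ms4a1, Lta and Treml2. The ratios depend on what the other barcodes hold: Ms4a1 stood at 89.0 CPM in plasma cell barcodes of the small intestine and 6.76 CPM in those of the large intestine.

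**Figure D2:**
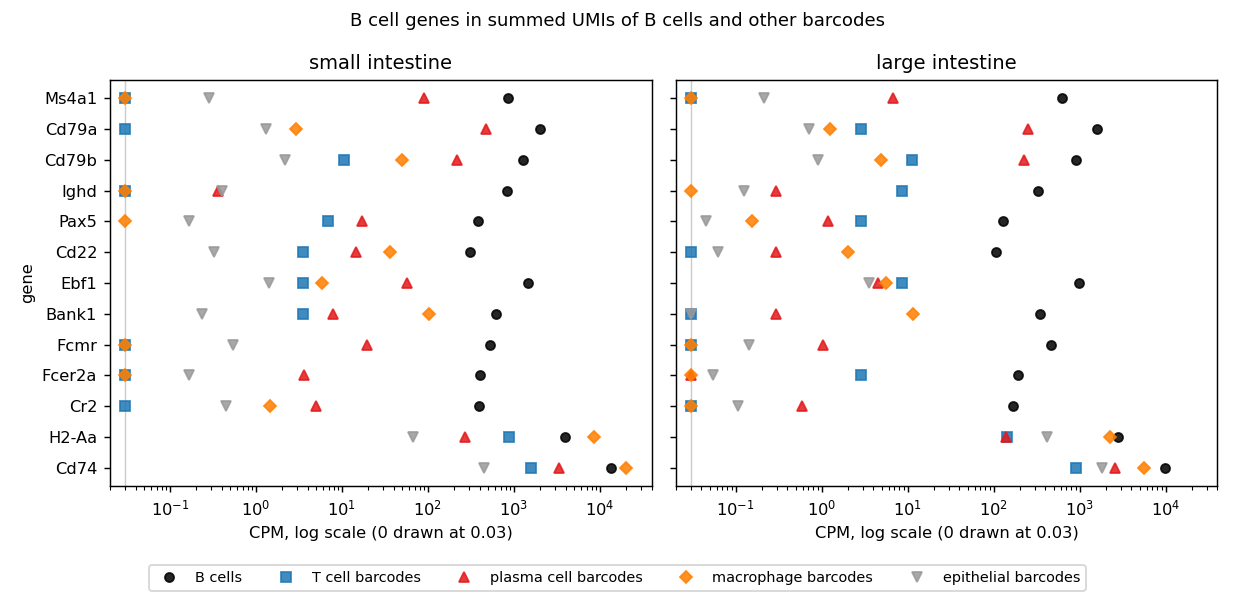
Summed CPM on a log x axis for 13 B cell and MHC class II genes in B cells and 4 other classes of barcodes of each library, with 0 drawn at 0.03. B cells (black circles) lie furthest right for the first 11 genes; for H2-Aa and Cd74 macrophage barcodes lie to the right of B cells in the small intestine.

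Genes of antigen receptor signalling were also higher in B cells, by less. Of 20, 19 passed 2-fold over other kept barcodes in the small and 17 in the large intestine, with median log2 ratios of 3.15 and 3.08. The kinase Syk, which binds the phosphorylated Cd79 chains, stood at 220 and 143 CPM (4.04 and 3.56), and Btk, the next kinase in the pathway, at 92.7 and 42.1 CPM (5.36 and 4.69). The adaptor Blnk stood at 192 and 118 CPM (2.91 and 1.14). Cd81, a membrane protein that many cell types express, was lower in B cells than in other barcodes, by log2 ratios of -0.54 and -0.41. This list holds genes that T cells and myeloid cells also use.

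MHC class II genes were high as a group over other barcodes. All 10 passed 2-fold over other barcodes in the small intestine and 9 in the large, where H2-DMb1 stood at a log2 ratio of 0.89. H2-Ab1 and H2-Eb1, chains of the peptide-presenting molecules, had a UMI in 100% of the B cells of both libraries. Cd74, the invariant chain, stood at 13294 and 9916 CPM, against 20335 and 5607 CPM in macrophage barcodes. H2-Aa stood at 3933 and 2764 CPM, against 8558 and 2227 CPM in macrophage barcodes. H2-Oa and H2-Ob, the chains of the H2-O regulator of peptide loading, exceeded other barcodes by log2 ratios of 6.20 and 6.48 in the small and 6.88 and 6.68 in the large intestine. Ciita, the coactivator that switches on the class II genes, stood at 489 and 162 CPM and had a UMI in 74.5% and 55.7% of the B cells.

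Naive and follicular genes were high in both libraries: 10 of 10 passed 2-fold in each, with median log2 ratios of 6.70 and 8.59. Fcer2a, which encodes CD23, stood at 398 and 194 CPM, log2 ratios of 8.38 (7.99 to 8.79) and 9.79 (9.20 to 10.44). Cr2, a complement receptor carried by follicular and marginal zone B cells, stood at 393 and 168 CPM. Klf2, which maintains quiescence and trafficking genes, had a UMI in 55.5% and 74.8% of B cells.

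Among 16 homing and chemotaxis genes, 11 had enough UMIs to compare, and 11 in the small and 10 in the large intestine passed 2-fold. Cxcr5, the receptor that draws B cells to follicles, stood at 109 and 60.6 CPM, Ccr6 at 82.4 and 55.6 CPM and Ccr7, the receptor for the T zone chemokines, at 193 and 219 CPM. Gpr183, an oxysterol receptor that positions B cells within follicles, stood at 350 and 244 CPM and Cxcr4 at 228 and 155 CPM. The gut homing receptor Ccr9 had 2 and 0 UMIs in B cells, against 226 and 48.2 CPM in T cell barcodes. Ccr10, a receptor of IgA plasma cells, had 0 and 0 UMIs.

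Survival receptors and cytokine genes followed the same pattern. Of 10 survival genes compared, 9 and 8 passed 2-fold over other barcodes. Tnfrsf13c, the BAFF receptor, stood at 328 and 253 CPM, Cd40 at 54.9 and 42.1 CPM, and Tnfrsf13b, which encodes TACI, at 148 and 48.9 CPM; Tnfrsf17, the plasma cell receptor BCMA, had 0 and 2 UMIs. The cytokine genes that lymphoid tissue organisation needs were both high: Ltb stood at 667 and 408 CPM and Lta at 35.5 and 28.6 CPM. Il10 had 0 UMIs in both, at floors of 3 UMIs over 873710 and 593677 B cell UMIs. Of 12 activation genes compared, 11 and 10 passed; Cd83 stood at 435 and 418 CPM, Cd69 at 358 and 328 CPM and Icosl, the ligand for ICOS on T cells, at 99.6 and 21.9 CPM.

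Immunoglobulin constant genes placed most of these cells in the unswitched state. By UMI count, uncorrected for transcript length, Ighm was the largest of the heavy chain genes in 215 of 247 small intestinal and 91 of 115 large intestinal B cells, and Ighd in 15 and 6. Igha was largest in 2 and 8 cells, of which 1 and 4 were mixed, and Ighg1 in 1 and 0; the remaining 14 and 10 had a tie or none. Ighm had a median of 8 UMIs per B cell in the small intestine (0 to 26) and of 6 in the large (0 to 24), and at least 1 UMI in 98.8% and 98.3% of cells. At least 1 UMI of both Ighm and Ighd was present in 224 (90.7%) and 86 (74.8%) B cells.

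T cell barcodes, which should lack immunoglobulin, gave the background of these shares. UMIs were drawn at random from each cell down to 2000, which kept 232 and 106 B cells and 54 and 60 T cell barcodes. Ighm was then seen in 97.4% and 94.3% of B cells and in 29.6% and 48.3% of T cell barcodes. Ighd was seen in 81.9% and 60.4% of B cells against 0% and 1.67% of T cell barcodes. Igha, in contrast, was seen in 61.6% and 60.4% of B cells and in 59.3% and 55.0% of T cell barcodes, so its share in B cells was at the background. In summed CPM Igha stood at 422 and 468 in B cells, 397 and 372 in T cell barcodes and 131600 and 113823 in plasma cell barcodes. One large intestinal B cell stood apart, with 77 UMIs of Igha, 144 of Igkc and 0 of Ighm and Ighd among 3430 UMIs.

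Light chain genes were dominated by kappa. Igkc had a median of 17 UMIs per B cell in the small intestine (0 to 52) and of 26 in the large intestine (1 to 144), against 2 and 4 in T cell barcodes. Iglc1, Iglc2 and Iglc3 together exceeded Igkc in 19 (7.69%) and 5 (4.35%) B cells. Iglc2 and Iglc3, which are near-identical copies whose reads may be split uncertainly, had a summed median of 5 and 4 UMIs in B cells and of 0 in T cell barcodes. Of the 208 and 107 B cells with at least 10 UMIs of Igkc, 202 and 100 also held a UMI of Iglc2 or Iglc3. UMIs of Igkc and of Iglc2 or Iglc3 were therefore found together in most B cells. In the 208 and 107 cells Igkc had medians of 20 and 28 UMIs, and Iglc2 and Iglc3 together medians of 5 and 4. The source of these Iglc2 and Iglc3 UMIs was not tested.

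Iglc1 was high in few cells. It reached 10 UMIs in 9 and 3 B cells, a threshold set after the values were seen, and in those cells Igkc had a median of 4 and 2 UMIs, against 18 and 26 in the remaining 238 and 112. Variable genes were scarce in these files: the Ighv genes summed to 65 and 21 UMIs, Igkv to 26 and 24 and Iglv to 14 and 12 over all B cells, too few to describe a repertoire.

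**Figure D3:**
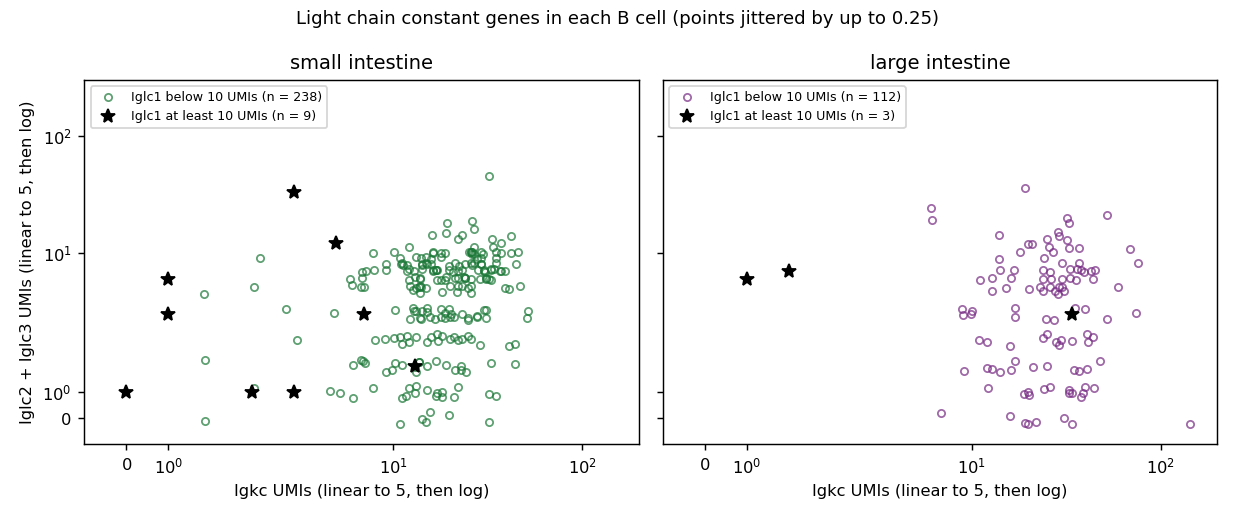
Each point is 1 B cell; the x axis gives Igkc UMIs and the y axis the sum of Iglc2 and Iglc3 UMIs, both linear to 5 and logarithmic above, with a small jitter. Stars mark the 9 and 3 B cells with at least 10 UMIs of Iglc1, most of which lie at low Igkc; most other B cells hold both kinds of light chain UMIs.

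Few B cells passed a rule on germinal centre genes. At least 3 UMIs over 8 germinal centre genes, among them Mef2b, S1pr2, Rgs13 and Gcsam, were present in 3 small intestinal and 1 large intestinal B cell. Of 14 germinal centre genes 4 had enough UMIs to compare, and 2 passed 2-fold in each library, Bcl6 (26.3 and 25.3 CPM) and Lmo2 (229 and 131 CPM). Of 12 memory genes 5 could be compared. In the small and large intestine 3 and 2 of them passed 2-fold and 1 and 1 were at least 2-fold lower. Their median log2 ratios were 1.62 and 0.72. Of all genes 27.0% and 14.9% passed, and 12.5% and 4.14% were at least 2-fold lower. Cd80 had 0 UMIs in both libraries and Cd27 had 9 and 4. Prdm1, the regulator that turns B cells into plasma cells, had 1 and 0 UMIs. Mzb1 was seen in 113 and 55 B cells, but the call capped it at 4 UMIs per cell. Of 13 marginal zone and B1 genes 8 could be compared. In the small intestine 4 passed and 4 were at least 2-fold lower than other barcodes, and in the large intestine 2 and 2. The median log2 ratios of the list were -0.10 and -0.16, so it did not lean to B cells. Cd5 had 0 and 1 UMIs.

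Cell cycle genes were low in the small intestine over all other barcodes. None of 15 passed 2-fold over other barcodes, 9 in the small and 1 in the large intestine were at least 2-fold lower (of all genes, 12.5% and 4.14% were), and the median log2 ratios were -2.26 and -0.33. In the large intestine the list summed to 2688 CPM in B cells and 978 without mixed ones, against 1821 in T cell barcodes. In the small intestine it summed to 665 CPM, against 1395 in T cell barcodes. At least 2 UMIs of Mki67, Top2a, Birc5 and Cdk1 were found in 7 and 8 B cells, and 3 and 6 of those were mixed. Over all B cells 14 of the 15 were at least 2-fold higher in the large intestine, as were 10.0% of all genes. Without mixed ones 0 of the 11 with a ratio were, and 5.32% of all genes. For Stmn1 and Mki67, the log2 ratio of small over large intestine was -3.88 and -3.39 over all B cells, and -0.81 and -0.84 without the mixed ones. Interferon genes were intermediate, with 4 and 3 of 7 past 2-fold.

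B cells with and without Ighd were set side by side for the listed genes. Among B cells that were not mixed, 180 and 60 held Ighd and 17 and 19 did not. In the small intestine Fos, an immediate early gene, was lower in cells with Ighd by a log2 ratio of -3.40 (-4.03 to -2.77), from 45 UMIs in 180 cells against 44 UMIs in 17. Those 44 UMIs came from 2 cells, and in the large intestine the Fos ratio was -0.08 (-0.70 to 0.58). Junb, another AP-1 gene, had a small intestinal ratio of -1.12 and a large intestinal one of -0.11. In the large intestine Igha was lower in cells with Ighd by -2.28, from 75 against 98 UMIs, of which 77 came from the single cell with high Igha described above. A cell at 0 UMIs of Ighd may still express it, since the median was 3 UMIs in the small and 1 in the large intestine.

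B cells made up 8.96% (7.92 to 10.1) of kept barcodes in the small and 1.86% (1.54 to 2.23) in the large intestinal library. The sort added stem and lymphatic endothelial cells and set these denominators, so the shares describe the sorted libraries. Without mixed B cells the shares were 7.15% and 1.28%. T cell barcodes made up 2.03% and 1.07%, and plasma cell barcodes 3.96% and 4.91%.

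The tissues were compared by the share of B cells with a UMI after thinning to 2000 UMIs. Of 300 listed genes present in the files, 38 had intervals that did not overlap over all B cells, 21 higher in the small and 17 higher in the large intestine, against 2.12% and 1.51% of all 5887 genes. Of these, 23 had intervals apart both with and without mixed B cells, 13 higher in the small and 10 higher in the large intestine. Of all 5887 genes, 1.24% were higher in the small and 0.629% in the large intestine by the same measure. The lists include epithelial and Paneth cell genes, which made up 12 of the 23.

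The B cell genes with higher shares in the small intestine were 5. Ighd was seen in 81.9% (76.3 to 86.6) against 60.4% (50.4 to 69.7) of B cells, and in 84.1% against 66.2% without mixed cells. Pik3ap1, an adaptor that links the antigen receptor complex to PI3 kinase, was seen in 39.7% (33.3 to 46.3) against 14.2% (8.1 to 22.3). The T cell barcodes held Pik3ap1 in 1.85% and 3.33%, so this gene lay at a low background in both libraries. Pou2f2, which encodes the octamer factor Oct-2, was seen in 72.0% against 51.9%, with 22.2% and 11.7% in T cell barcodes. Prkcb, a kinase between Btk and NF-kB, was seen in 35.8% against 19.8%, and Tnfrsf13b in 26.3% against 12.3%.

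Genes with higher shares in the large intestine were often higher there in T cell barcodes too. Klf2 was present in 43.5% and 62.3% of the B cells and in 33.3% and 48.3% of the T cell barcodes. The immediate early genes Fos (14.2% against 38.7%) and Fosb (6.03% against 23.6%) stood at 14.8% and 28.3%, and at 7.41% and 20.0%, in T cell barcodes. These genes encode AP-1 factors that many stimuli induce. The part that any difference shared with T cells has in the B cell values was not tested. Bcl2a1b, a survival gene of the Bcl2 family with near-identical copies, was seen in 12.9% against 26.4%, while it was seen in 11 of 54 and 9 of 60 T cell barcodes. Jchain (19.0% against 37.7%) and Stmn1 (3.45% against 17.9%) stood at 9.26% and 28.3%, and at 5.56% and 21.7%, in T cell barcodes.

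The remaining 12 genes are epithelial. Defa24, a Paneth cell defensin, was seen in 99.6% of small intestinal and 0% of large intestinal B cells, and in 98.1% and 0% of T cell barcodes. Agr2, a goblet cell gene, was seen in 11.2% and 60.4% of B cells and in 18.5% and 58.3% of T cell barcodes. The shares of Defa24 and Agr2 in B cells lay close to those in T cell barcodes of the same library. Follicular and homing genes mostly overlapped between tissues: Fcer2a was seen in 53.9% and 45.3%, Ccr7 in 29.3% and 36.8%, Gpr183 in 53.0% and 51.9% and Cxcr4 in 37.5% and 37.7%. For Cr2 (50.4% against 33.0%) the intervals were apart over all B cells and overlapped without mixed cells (52.7%, 45.2 to 60.2, against 35.2%, 24.2 to 47.5).

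**Figure D4:**
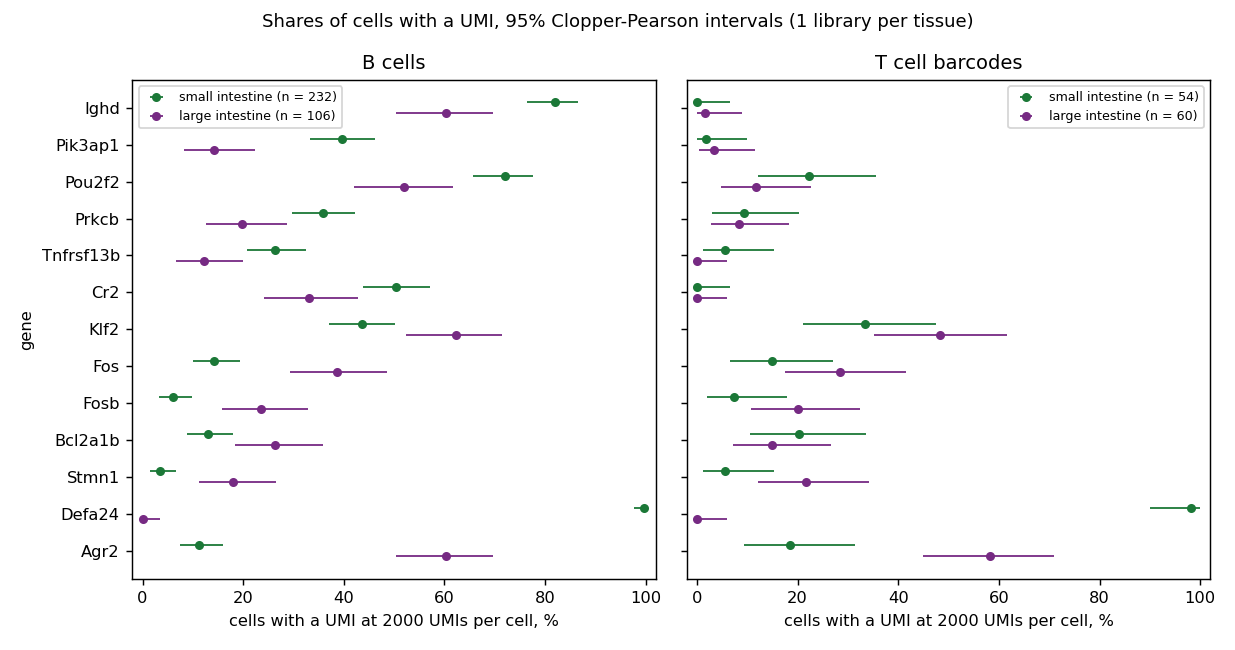
Share of cells with a UMI at 2000 UMIs per cell for 13 genes, with 95% Clopper-Pearson intervals, in B cells (left) and T cell barcodes (right) of the small (green) and large (purple) intestine. Ighd, Pik3ap1 and Tnfrsf13b differ in B cells and lie near 0 in T cell barcodes; Defa24 and Agr2 show the same pattern in both classes.

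Ratios of summed UMIs gave a comparison of all genes. Of 5887 genes, 625 (10.6%) were at least 2-fold higher in small and 590 (10.0%) at least 2-fold higher in large intestinal B cells. Over the same genes without mixed B cells the counts were 637 (10.8%) and 313 (5.32%), with 275 genes too low in both groups for a ratio. T cell barcodes gave 8.15% and 7.91% of 2995 genes. Median-of-ratios scaling shifted the median log2 ratio of all genes from 0.03 to 0.19 and gave 899 higher in small and 435 higher in large. Averaging CPM over cells gave 597 and 327. The split of genes between the tissues therefore depended on the scaling.

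Genes enriched in B cells leaned to the small intestine over all B cells, and by less without the mixed cells. Without them the share higher in the small intestine lay near that of all genes. The share higher in the large intestine lay below that of all genes. Of the 838 genes at least 2-fold over other barcodes in both libraries, 220 (26.3%) were higher in small and 2 (0.239%) in large intestinal B cells, with a median log2 ratio of 0.65; of all genes 10.6% and 10.0% were, with a median of 0.03. Without mixed B cells 96 (11.5%) and 14 (1.67%) were, with a median of 0.21; of all genes 10.8% and 5.32% were, with a median of 0.11. The mixed cells carried 36.1% of the small and 62.5% of the large intestinal B cell UMIs.

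The core markers changed direction between these views. Ms4a1 had a log2 ratio of small over large of 0.42 over all B cells and of -0.25 without mixed cells, Cd79a of 0.34 and -0.16, and Cd79b of 0.52 and -0.01. Ebf1 had 0.57 and -0.04. For these genes no direction is stated. Ighd kept its direction, at 1.36 (1.13 to 1.60) and 0.80 (0.52 to 1.09), and so did Pax5, at 1.55 and 1.01 (0.56 to 1.48), and Ighm, at 0.91 and 0.43. Igkc stood at 0.00 over all B cells and at -0.55 without mixed cells, with -0.62 in T cell barcodes.

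Pik3ap1, Tnfrsf13b, Pou2f2 and Prkcb were higher in the small intestine with and without mixed cells. Pik3ap1 stood at 1.76 and 1.26 (0.63 to 1.95), Tnfrsf13b at 1.60 and 1.26 (0.51 to 2.09), Pou2f2 at 1.38 and 1.02, and Prkcb at 1.39 and 0.97. Pou2f2 also stood at 1.59 in T cell barcodes. Of 20 receptor signalling genes, 7 were at least 2-fold higher in the small and 0 in the large intestine over all B cells, and 3 and 0 without mixed cells, with medians of 0.74 and 0.46. Of all genes 10.6% and 10.0% were over all B cells, and 10.8% and 5.32% without mixed cells, so the 3 of 20 lie near the share of all genes. The survival genes did not lean one way: 8 of 10 had a ratio above 0 over all B cells (median 0.38) and 4 of 10 without mixed cells (median -0.06). Icosl stood at 2.19, from 87 and 13 UMIs, and between 0.88 and 3.36 without mixed cells. Dock10, an exchange factor for small GTPases that was named after its values were seen, stood at 2.02 and 1.73 (1.19 to 2.32), with 0.44 in T cell barcodes.

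The immediate early and heat shock genes gave different counts with and without mixed cells. Of 15 compared over all B cells, 2 were at least 2-fold higher in the small and 3 in the large intestine, against 10.6% and 10.0% of all genes; 5 had a ratio above 0, and the median log2 ratio was -0.12. Without mixed cells 0 and 6 passed, against 10.8% and 5.32% of all genes; 3 had a ratio above 0, and the median was -0.96. Fos stood at -0.59 over all B cells and -1.83 without mixed cells, Fosb at -0.12 and -1.82 and Junb at -0.32 and -1.01. Egr1 went the other way, at 1.90 and 0.53. In T cell barcodes the same ratio was -0.68 for Fos, -1.36 for Fosb and -0.13 for Junb. Hspa8, a constitutive chaperone, stood at -1.21 and -1.06, with -1.10 in T cell barcodes. Of genes from other lists, Klf2 stood at -0.43 and -0.99, with -0.84 in T cell barcodes, and Bcl2a1b at -0.51 and -1.06, with -0.02 in T cell barcodes. Ccr7 stood at -0.18 and -0.78, whereas T cell barcodes stood at 0.64. Cd74 moved from 0.42 to 0.03.

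**Figure D5:**
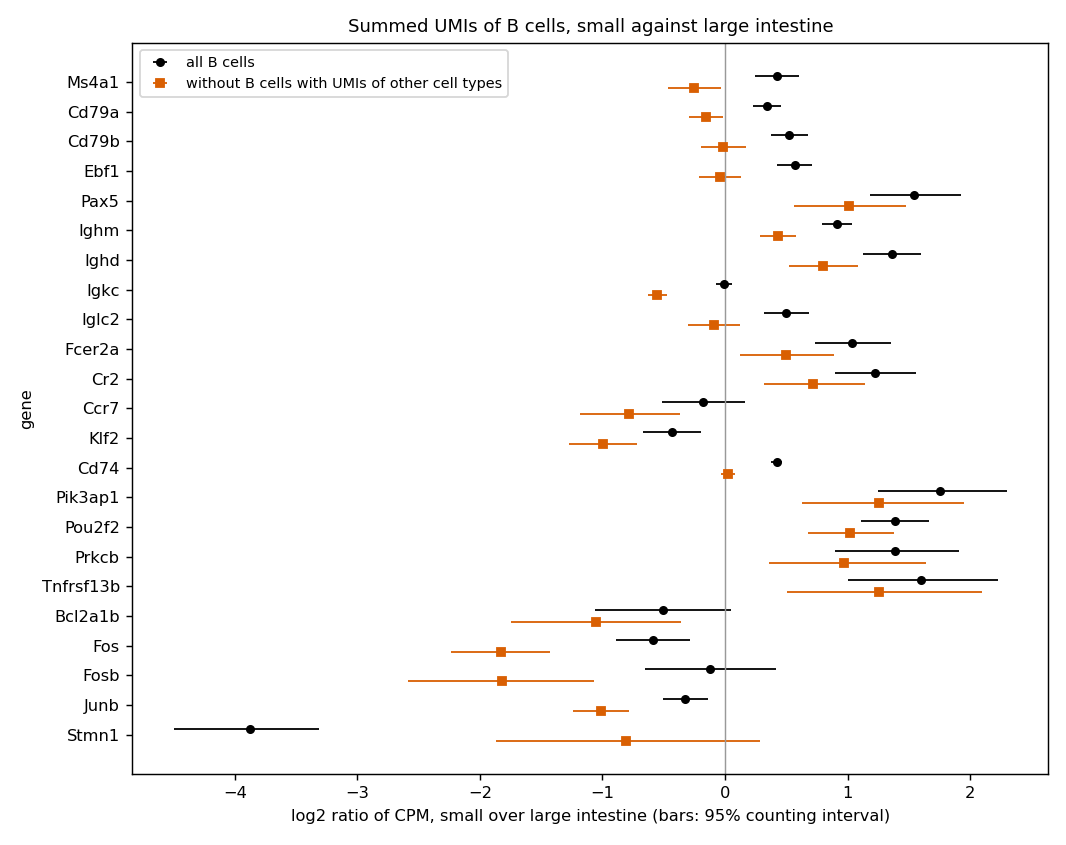
Log2 ratio of summed CPM, small over large intestine, for 23 genes with 95% counting intervals, over all B cells (black circles) and without mixed B cells (orange squares). The squares lie left of the circles for all genes but Stmn1; Pax5, Ighd, Pik3ap1, Pou2f2, Prkcb and Tnfrsf13b stay right of 0, while Ms4a1 and Cd79a cross it.

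The genes with the most extreme ratios between tissues were not B cell genes. Those highest in the small intestine were the Paneth cell genes Defa24 (4844 and 1 UMIs), Defa30 (1288 and 0), Defa22 (715 and 0), Defa21 (695 and 0), Lyz1 (643 and 1), Mptx2 (292 and 0), Defa29 (227 and 0) and Itln1 (1159 and 16). The goblet and enterocyte genes Zg16, Clca1 and Fabp1 and the haemoglobin gene Hbb-bs completed the 12. In these 4, 1 cell held most UMIs: 7262 of 10658 for Zg16, 340 of 576 for Clca1, 233 of 282 for Fabp1 and 723 of 737 for Hbb-bs. Without mixed cells Zg16 had a log2 ratio of 0.20 (-0.26 to 0.68) and Clca1 of -0.42 (-1.75 to 1.03), so neither direction held. Hbb-bs (734 and 6 UMIs) rested on its highest cell, and its ratio was -0.45 without that cell. Fabp1 (34 and 0) and the 8 Paneth cell genes stayed higher in the small intestine without mixed cells. Defa24 stood at 12543 and 0 CPM in T cell barcodes, and every small intestinal B cell held at least 1 of its UMIs. Without mitochondrial, ribosomal, sex-linked and unnamed genes, 5647 genes remained. Of these, 14 (0.248%) lay at least 2-fold above other barcodes in 1 library and 2-fold below them in the other. Their counting intervals excluded 0 in both libraries.

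At the other end stood genes of the colonic epithelium. Mptx1 had 4 and 2215 UMIs, Sval1 0 and 425, Retnlb 2 and 171, Plet1 2 and 90, Ceacam10 6 and 171 and Wfdc2 0 and 85. Cd177 had 4 and 111 UMIs, Hsd11b2 0 and 69, Iigp1 4 and 89, St6galnac6 2 and 66, Car1 0 and 56 and Cldn2 3 and 52. For all of them but Car1, most UMIs were in mixed cells. Without them the large intestine kept 103 UMIs of Mptx1, 61 of Retnlb, 32 of Car1, 23 of Sval1 and 6 of Wfdc2. The other 7 were at 1 to 4 UMIs there, and Cldn2 had 2 UMIs in the small and 1 in the large intestine. A single large intestinal B cell held 1466 of the Mptx1 UMIs, and a single one 279 of the Sval1 UMIs. Car1, a carbonic anhydrase of colonocytes, was spread over 39 cells with at most 4 UMIs each, and stood at 0 and 187 CPM in T cell barcodes.

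The sections, which the B cell call did not use, held B cell genes at low levels. A spot is a small area that covers several cells, and fewer B cells and less RNA per B cell cannot be told apart in it. Over spots with at least 500 UMIs (2094 and 2571 in the small, 2094 and 2179 in the large intestine), 8 B cell genes, among them Ms4a1, Cd79b, Ighd, Fcer2a, Cr2, Cxcr5 and Pax5, summed to 151 and 187 UMIs in the small and to 696 and 655 UMIs in the large intestinal sections. Both large intestinal sections were higher than both small intestinal ones. The log2 ratio of their CPM, small over large, was -1.35 (-1.53 to -1.18), and without Cd79b, which supplied most of these UMIs, it was -1.53. Ms4a1 alone had 4 and 6 UMIs against 34 and 29, and Ighd 5 and 11 against 49 and 24. The duplicates are technical, so this compares the sectioned pieces. The order was opposite to that of the B cell shares in the sorted libraries (8.96% and 1.86%), which have other denominators.

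Spots with at least 3 UMIs of the 8 genes numbered 3 and 5 in the small and 28 (1.34%) and 32 (1.47%) in the large intestinal sections. In the small intestine no spot reached 5 UMIs, and in the large intestine 8 and 4 did. Cd79b, which was also counted in the organoid epithelium, supplied 100% and 76.5% of the UMIs of the 8 genes in the small intestinal spots and 47.5% and 71.9% in the large intestinal ones. Without Cd79b, 0 and 0 small and 8 and 3 large intestinal spots reached 3 UMIs. The highest spot, in section 1 of the large intestine, held 47 of these UMIs, 34 of them without Cd79b. The same spot held 46 UMIs of Ighm, 20 of Igha, 22 of Cxcl13, 81 of Clu and 0 of Epcam among 21173 UMIs. Cxcl13 is the chemokine that CXCR5 recognises, and Clu is carried by follicular dendritic cells among other cells.

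Other genes that the spot rule did not use were also higher in the B-gene-rich spots of the large intestine. Over the 28 and 32 spots against all other spots, the log2 ratio was 5.01 (4.51 to 5.49) and 1.84 (0.50 to 2.92) for Cxcl13, 5.15 and 3.05 for Clu, 3.93 and 2.82 for Ltb and 4.63 and 2.86 for Ccr7. Without the highest spot Cxcl13 stood at 4.27 in section 1. Ccl21a, a chemokine of lymphatic vessels and T zones that has near-identical copies, stood at 2.87 and 2.81. Ighm stood at 3.13 and 2.02, whereas Epcam stood at -0.67 and -0.42. At this threshold each section gave the same direction for these genes, from few UMIs in section 2 (7 for Cxcl13, 5 for Ccr7).

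The direction of the plasma cell genes in section 1 depended on the threshold. Igha stood at 0.89 and 1.05 over the spots with at least 3 UMIs, and in section 1 at -0.72 (-0.80 to -0.65) over the 8 spots with at least 5 UMIs. There Jchain stood at -0.65 and Igkc at -0.57, while section 2 stood at 1.38 for Igha over 4 spots. Genes of other cells differed in these spots as well: at 3 UMIs Trbc2, of T cells, stood at 2.45 and 0.93 (-0.29 to 1.93), Coro1a, of leukocytes, at 2.35 and 1.26, and Acta2, of smooth muscle, at 1.18 and 0.38. At 5 UMIs Acta2 stood at 2.03 in section 1 and -0.54 in section 2. The part of these cells in the other ratios was not tested.

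The organoid libraries, which hold epithelial cells, gave the background of the B cell genes in cells of another type. Ms4a1 had 0 and 1 UMIs in the 818 cells grown alone and the 1233 cells in coculture, Cd79a 2 and 1, Pax5 0 and 1, and Ighd 0 and 0. Cd79b had 79 and 153 UMIs, in 59 and 105 cells with at most 3 and 4 UMIs in a cell. Of 24 marker and identity genes, 10 exceeded 3 UMIs in both organoid libraries: Bach2, Cd55, Cd72, Cd79b, Ebf1, Ly6d, Pou2af1, Pou2f2, Ralgps2 and Spib. Cd55 (1482 and 1301 UMIs), Ly6d (6001 and 2644) and Ralgps2 (2575 and 4360) were the highest of them, whereas Ebf1 (5 and 4), Pou2f2 (5 and 4), Pou2af1 (4 and 6) and Cd72 (5 and 6) lay close to the floor of 3 UMIs.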

How the data were processed

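The values are the UMI counts per gene and barcode or spot that the authors deposited; per the file headers they were made with Cell Ranger 6.0.1 and Space Ranger 1.2.1, and the build was mm10 per the submitters' processing notes. The annotation is not given in the sources used here. The deposited matrices held 8842 and 8646 barcodes (78482770 and 142501907 UMIs) for the tissue libraries and 24356162 to 43833127 UMIs for the sections. B cells were called by the stated thresholds; UMIs were summed over cells, scaled to CPM, and compared as log2 ratios with exact conditional Poisson intervals. In ratios, counts under 3 UMIs were set to 3, so ratios against 0 are bounds; no ratio is given where both counts were at most 3 UMIs or the higher side was raised to 3. Shares have Clopper-Pearson intervals after thinning to 2000 UMIs. The members and gene lists were chosen with earlier results of these data known. Named genes were the listed genes, the 12 most extreme per direction between tissues (at least 30 UMIs and 5% of cells of the higher library, without mitochondrial, ribosomal, sex-linked and unnamed genes) and the top 15 over other barcodes. The scripts were tested on simulated data. Python 3.11.15, numpy 2.4.6, scipy 1.17.1, pandas 2.3.3, scanpy 1.11.5 (with its Scrublet) and matplotlib 3.10.9 were used. Samples were grouped by their labels. Some genes are not reported here.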

Additional observations from a re-analysis of the deposited data

Results flagged for a closer look

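Of 5647 genes compared, 14 (0.248%) were at least 2-fold higher in B cells than in other kept barcodes of 1 tissue and at least 2-fold lower in the other, with counting intervals that excluded 0 in both. The difference between the tissues was not tested, since there was 1 library of each. The log2 ratio of the small intestine minus that of the large intestine was 6.74 for Acta2, 7.72 for Hbb-bs, 5.27 for Col1a2, 5.06 for Lgals1, 4.99 for Tagln, 4.06 for Tpm2, 3.75 for Fmo2, 3.71 for C3, 3.51 for Myl9 and 2.73 for Actg2. In large intestinal B cells Acta2, Tagln, Tpm2, Fmo2 and Myl9 had 0 UMIs, so their differences are lower bounds set by the floor of 3 UMIs. Col1a2 and Actg2 had 1 UMI there, also set to 3, and their large intestinal log2 ratios had counting intervals of -11.06 to -3.28 and -8.33 to -0.55. In the small intestine 240 of 241 Acta2 UMIs, 90 of 91 Tagln UMIs and 723 of 737 Hbb-bs UMIs came from 1 B cell each. In the opposite direction the difference was -5.33 for Lgals2, -3.78 for Mmp7, -3.49 for Itln1 and -3.03 for the copy of Ccl21a with the identifier ENSMUSG00000094686. In the large intestine 356 of 358 Lgals2 UMIs, 43 of 50 Mmp7 UMIs, 13 of 16 Itln1 UMIs and 76 of 76 Ccl21a UMIs came from 1 B cell each. Without mixed B cells the Hbb-bs (734 UMIs) and Ccl21a (76 UMIs) counts remained.

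Cd79b had 79 UMIs in the organoids grown alone and 153 in the cocultured organoids, libraries sorted for epithelial cells, above the 3 UMIs used as the floor. The other 4 marker genes were at 0 to 2 UMIs there.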

How the results depend on the processing

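No paired analysis was possible because each tissue had 1 single-cell library and the sections are technical duplicates without shared numbers across a treatment. Removing mixed B cells without counting Pecam1, B cells above 8000 UMIs, Cd79b from the section sum and the highest spot were alternatives chosen after seeing the data. The B cell share of the small intestine (8.96%) was 6.42% without B cells with other types' UMIs when Pecam1 was counted, 7.15% without Pecam1, 11.4% at a limit of 10% mitochondrial UMIs, 6.53% with 2 Ms4a1 UMIs and 7.62% with at most 1 Mzb1 UMI. That of the large intestine (1.86%) was 1.24%, 1.28%, 1.45% (Ms4a1) and 1.42% (Mzb1). Of 5887 genes, 625 were higher in the small intestine and 590 in the large. The 625 became 312 of 3229 (Pecam1 counted), 368 of 3521 (without) and 416 of 4299 (at most 8000 UMIs). They became 391 of 4694 (Ms4a1), 194 of 2170 (at least 100 UMIs) and 1276 of 14466 (at least 1 UMI). The 590 became 75, 88, 82, 246, 182 and 1506 of the same numbers of genes, in that order. They became 175 of 4819 without the highest Scrublet scores (4 and 7 B cells) and 327 of 5887 by mean CPM. The counts are to be read against the numbers of genes, and the cause of the changes was otherwise not tested. The section ratio (-1.35) was -1.53 without Cd79b and -1.44 to -1.27 with 1 section left out. All 20 identity genes passed 2-fold in both libraries under each cell filter run.

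Between tissues 51 genes were compared in 15 settings each. Of the values, 479 stayed within the main counting interval of their gene, 239 moved outside it and 32, of 8 genes, changed sign. The remaining 15 had too few UMIs for a ratio. A change of sign was counted where the main interval excluded 0, whatever the interval of the new value. Some of the 32 lie close to 0, such as -0.0081 for Cd74, and show no direction of their own. Without the highest Scrublet scores the log2 ratio was -0.14 for Ms4a1, -0.18 for Cd79a, -0.079 for Iglc2 and -0.011 for Ebf1. With Pecam1 counted it was -0.27 for Ms4a1, -0.19 for Cd79a, -0.034 for Cd79b, -0.040 for Ebf1, -0.011 for Cd74, -0.66 for Hbb-bs and -0.54 for Clca1. Without mixed cells it was -0.25 for Ms4a1, -0.16 for Cd79a, -0.013 for Cd79b, -0.091 for Iglc2, -0.040 for Ebf1 and -0.42 for Clca1. At most 8000 UMIs gave -0.22, -0.26, -0.059, -0.23 and -0.10 for Ms4a1, Cd79a, Cd79b, Iglc2 and Ebf1, -0.0081 for Cd74 and -0.21 for Clca1. Mean CPM gave -0.20, -0.21, -0.053, -0.11 and -0.048 for the first 5. Requiring 2 Ms4a1 UMIs gave -0.079 for Cd79a and -0.49 for Hbb-bs, which was -0.45 without its highest cell. At medians of 2845 and 2715 UMIs per B cell, genes of 1 UMI per cell or less were seen in only part of the cells that may express them.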
